A study of Mus musculus with 10 samples.

Results

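The Notch pathway was followed through 9 genes, the receptors Notch1, Notch2, Notch3 and Notch4, the ligands Jag1, Jag2 and Dll1, and the targets Hes1 and Hey1. They are 9 of the 12394 genes that 10 Affymetrix arrays of mouse RNA measured. Each gene is represented by the probe set annotated to that gene symbol alone that had the highest mean over all arrays. All 9 were measured, through 15 probe sets in all, and none was left out by a filter on low values. Values are log2 expression values, so a difference of 1 is an increase by a factor of 2.

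Each array holds RNA of 1 sorted cell population, and every population came from FVB/N mice and their mammary tissue. The 3 CAF arrays carry cancer-associated fibroblasts, the 2 CSC arrays CSC, the usual abbreviation of cancer stem cells, and the 2 TEC arrays another tumour population, whose title reads TEC where a different label field reads TEFs. These 3 populations came from mammary tumours of mice with the genotype WAPCre-DNbcatn;HGF, a Wnt-Met tumour model in which Cre is driven by WAP, the promoter of a milk protein gene active in secretory epithelium. The 3 COF arrays carry fibroblasts of control glands of WT mice, so tumour origin and genotype cannot be told apart between CAF and COF. The age of the mice, the gates of the sort and whether arrays come from separate or pooled animals are not given in the sources used here. Each p-value thus measures only the spread between these samples, which may be technical.

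Notch receptors are single-pass membrane proteins that are activated by Jagged and Delta-like ligands on a neighbouring cell. Binding lets ADAM metalloproteases and then gamma-secretase cut the receptor, and the released intracellular part enters the nucleus, joins the DNA-binding protein RBPJ and a Mastermind coactivator, and switches on targets such as the repressor genes Hes1 and Hey1. In the mammary gland Notch signalling is known for its part in the choice between luminal and basal cell fates, and activated Notch1 and Notch4 are known oncogenes of the mouse gland. In fibroblasts and vessel walls, the pathway is known to take part in contacts between stroma, endothelium and mural cells.

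RefSeq promoter windows, from 250 bases before to 50 after a gene's start on build GRCm38.p6, were matched for 7 of the 9 genes, the receptors and ligands, and not for the targets Hes1 and Hey1. They make 8 windows, because Dll1 has a second start. With the probe sets used, Notch1, Notch2 and Dll1 were lower in CAF than in COF. For that reason the windows of Notch1, Notch2 and the upstream start of Dll1 are shown. They lie at chr2:26503773-26504072 on the minus strand, chr3:98013288-98013587 on the plus strand and chr17:15376883-15377182 on the minus strand, and run 5′ to 3′ along the gene. Capitals mark letters bound by Hes proteins in the literature of this family, the N-box CACNAG and the class C site CACGCG, on either strand.
Notch1: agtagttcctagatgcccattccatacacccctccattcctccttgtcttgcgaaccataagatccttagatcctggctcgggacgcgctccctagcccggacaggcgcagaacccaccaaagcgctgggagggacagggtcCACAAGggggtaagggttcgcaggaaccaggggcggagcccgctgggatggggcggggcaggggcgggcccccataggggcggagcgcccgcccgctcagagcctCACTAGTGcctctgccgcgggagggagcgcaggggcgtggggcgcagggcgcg
Notch2: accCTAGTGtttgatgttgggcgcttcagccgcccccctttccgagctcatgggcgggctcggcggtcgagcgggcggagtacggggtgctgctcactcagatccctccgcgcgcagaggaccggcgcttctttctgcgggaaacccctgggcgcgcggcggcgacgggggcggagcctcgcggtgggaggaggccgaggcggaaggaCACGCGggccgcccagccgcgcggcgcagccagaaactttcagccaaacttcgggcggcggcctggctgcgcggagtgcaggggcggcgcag
Dll1: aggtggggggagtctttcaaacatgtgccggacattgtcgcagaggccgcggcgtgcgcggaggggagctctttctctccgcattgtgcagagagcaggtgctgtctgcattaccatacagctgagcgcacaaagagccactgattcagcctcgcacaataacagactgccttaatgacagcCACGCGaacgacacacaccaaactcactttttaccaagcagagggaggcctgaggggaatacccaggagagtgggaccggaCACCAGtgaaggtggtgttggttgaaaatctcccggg
The Notch1 window holds 3 N-boxes, of which a pair on opposite strands overlap each other and span the start. The Notch2 window holds 1 class C site and 1 N-box, and so does the Dll1 window shown, whereas the window of the other Dll1 start, at chr17:15375774-15376073, holds neither. Among 32851 RefSeq promoter windows of 300 bases, 42.5% hold an N-box and 9.27% a class C site on either strand. The core letters bound by RBPJ, TGGGAA, are on neither strand of any of the 8 windows of receptors and ligands, and 25.6% of all windows hold them. Such letters are not particular to the genes lower in CAF. The Notch3 window holds N-boxes and the Jag1 and Jag2 windows class C sites, and these genes did not pass in CAF against COF. The Notch4 window holds neither. These matches describe letters in a window and not sites in use.

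On every array the markers of the sorted population were checked first. The 15 pan-fibroblast genes had median log2 values of 13.51 to 13.57 in CAF, 8.43 and 8.48 in CSC, 9.13 and 11.68 in TEC, and 13.60 to 13.63 in COF. The 17 pan-epithelial genes had medians of 6.10 to 6.35 in CAF, 10.84 and 11.16 in CSC, 8.83 and 9.25 in TEC, and 5.48 to 5.78 in COF. Leukocyte genes were high in both tumour populations that are not fibroblasts, with medians of 10.03 and 10.68 in CSC and 12.61 and 13.01 in TEC, against 6.33 to 7.64 in CAF and 5.22 to 5.63 in COF. Macrophage genes had medians of 6.25 to 6.83 in CAF, 11.32 and 11.33 in CSC, 11.16 and 11.24 in TEC, and 5.24 to 5.42 in COF. The macrophage median thus lay above the pan-epithelial one on all CSC and TEC arrays, and the leukocyte median did so on both TEC arrays. The fibroblast median of TEC replicate 2, at 11.68, was above the 9.13 of TEC replicate 1. RNA quality was read from the Actb and Gapdh control probe sets. The 3' value of Actb exceeded the 5' value on the log2 scale by 0.59 to 0.61 in CAF, 0.62 and 0.63 in CSC, 0.32 and 0.46 in TEC and 0.66 to 0.76 in COF. For Gapdh this difference was 0.055 to 0.15 in CAF, 0.29 and 0.30 in CSC, 0.26 and 0.24 in TEC and 0.052 to 0.14 in COF, so the control genes ordered the populations differently. In such sorted bulk samples fewer cells of a type and less RNA per cell cannot be told apart. The part of admixed cells and RNA quality in the results below was not tested.

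**Figure D1:**
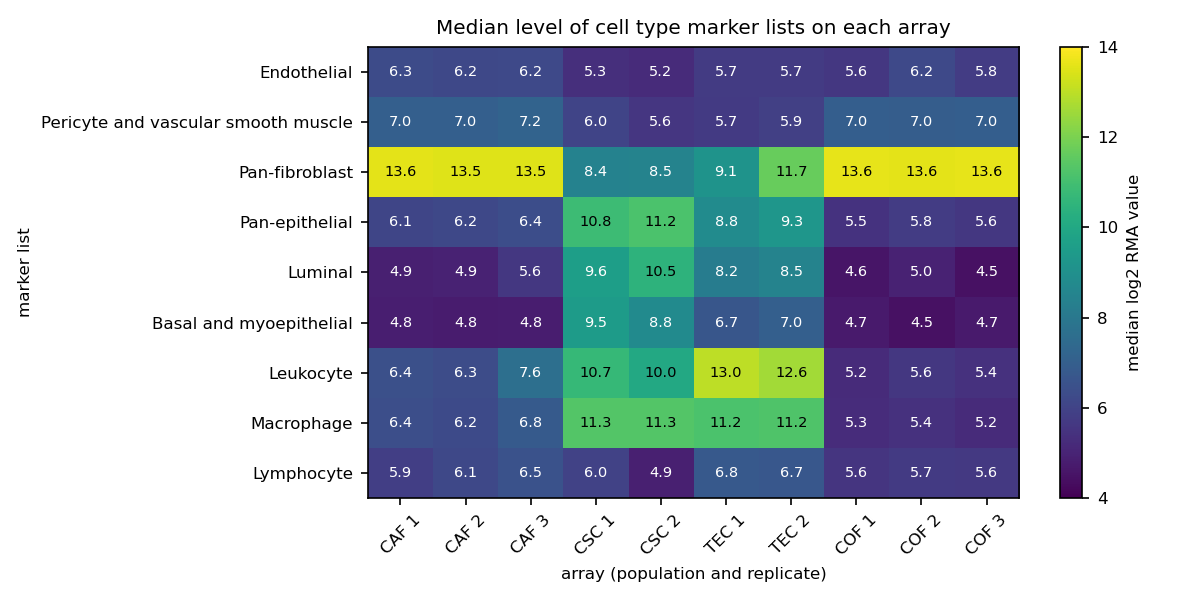
Median log2 value of 9 lists of cell type markers (rows) on each of the 10 arrays (columns), with the value printed in each cell and coloured from low (dark) to high (yellow). Pan-fibroblast genes were highest on the CAF and COF arrays, pan-epithelial genes on the CSC arrays and leukocyte genes on the TEC arrays.

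The receptors Notch1 and Notch2 were the members most reduced in CAF against COF together with the target Hes1. Notch1, a receptor found in most tissues, had log2 values of 7.35, 7.38 and 7.58 in CAF, 9.65 and 9.86 in CSC, 10.14 and 9.74 in TEC, and 9.65, 9.66 and 9.54 in COF. All 3 CAF arrays lay below all 7 others, and the other populations overlapped or nearly met. Notch1 was 4.54-fold lower in CAF than in COF, a log2 difference of -2.18 ± 0.12 (SE, n = 3 and 3, limma adjusted p = 1.4e-05). It was also lower in CAF than in CSC, at a difference of -2.32 ± 0.14 (adjusted p = 1.11e-06), and than in TEC, at -2.50 ± 0.14 (adjusted p = 9.01e-07). Its means in TEC, CSC and COF, the order from the highest, were 9.94, 9.76 and 9.62, and no neighbours in that order passed the test (adjusted p = 0.357 and 0.392). The second Notch1 probe set gave the same calls with smaller differences, of -1.44 against COF, -1.35 against CSC and -1.62 against TEC.

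Notch2, the receptor closest to Notch1 in structure, had log2 values of 9.38, 9.21 and 9.25 in CAF, 8.87 and 8.77 in CSC, 10.73 and 10.16 in TEC, and 10.37, 10.23 and 10.35 in COF. TEC and COF overlapped at the top, CAF lay in between and CSC was lowest. Notch2 was 2.05-fold lower in CAF than in COF (log2 difference -1.04 ± 0.14, SE, adjusted p = 0.000597) and 3.09-fold lower in CSC than in TEC (-1.63 ± 0.17, n = 2 and 2, adjusted p = 8.02e-05). CAF exceeded CSC by 0.46 ± 0.15 (adjusted p = 0.0248), a step that did not pass without CAF replicate 1. With 1 CSC array left this difference was 0.41 or 0.51, given without a test. The other Notch2 probe set was dim, at 5.85 to 6.09 in COF, and differed by -0.019 between CAF and COF (95% interval -0.24 to 0.20) and by -0.17 between CSC and TEC (adjusted p = 0.270). It was higher in CAF than in TEC by 0.50 (adjusted p = 0.00252), where the probe set used was lower at -1.17 ± 0.15. It was lower in CSC than in COF, at -0.69 (adjusted p = 0.000343), and higher in CAF than in CSC, at 0.67 (adjusted p = 0.000457), as with the probe set used. The decreases of Notch2 in CAF against COF and in CSC against TEC thus rest on 1 of 2 probe sets.

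Notch3, the receptor of vascular smooth muscle and pericytes, had log2 values of 7.09, 7.18 and 7.14 in CAF, 7.76 and 8.60 in CSC, 6.57 and 7.11 in TEC, and 7.21, 7.15 and 7.25 in COF. Both CSC arrays stood above all 8 others, and the CAF and COF arrays overlapped. CSC exceeded TEC 2.53-fold (1.34 ± 0.25, adjusted p = 0.00215) and CAF was below CSC at -1.04 ± 0.23 (adjusted p = 0.00317). CAF and COF differed by -0.069, with a 95% interval of -0.53 to 0.40. The other Notch3 probe set stood under 6 on all arrays and gave 0.48 for CSC against TEC (adjusted p = 0.0657) and -0.44 for CAF against CSC (adjusted p = 0.0475). In a fit on the CSC and TEC arrays alone the first difference had an adjusted p of 0.0592.

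Pericyte and smooth muscle markers were lower in CSC and TEC than in the fibroblasts in summed level. Of the 10 measured, 1 was higher and 1 lower in CSC than in TEC, and the log2 of their summed linear values was 9.63 and 9.70 in CSC and 9.86 and 10.13 in TEC, against 11.98 to 12.16 in CAF and 12.37 to 12.51 in COF arrays. In CAF against COF, 3 of the 10 were higher, 1 was lower and 6 did not pass, while the summed level was lower in CAF. Rgs5, 1 pericyte gene of that list, was at 9.55, 9.98 and 10.11 in CAF, 5.83 to 6.24 in CSC and TEC, and 7.07, 7.53 and 7.25 in COF.

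Notch4, the receptor of endothelial cells, was under the lower quartile of the array on all 10 arrays, with log2 values of 4.46 to 4.82 in CAF, 3.92 and 4.37 in CSC, 4.65 and 4.25 in TEC, and 4.66 in each COF array. CAF and COF differed by -0.035 (95% interval -0.38 to 0.31). The passing difference of 0.48 between CAF and CSC (adjusted p = 0.0308) turned to -0.43 (adjusted p = 0.0163) with the other probe set, and that of -0.52 between CSC and COF (adjusted p = 0.0215) turned to 0.70 (adjusted p = 0.00109), so no direction can be given for Notch4. The 16 endothelial genes had median log2 values of 6.17 to 6.28 in CAF, 5.24 and 5.34 in CSC, 5.72 and 5.74 in TEC and 5.64 to 6.21 in COF. On a single array, 3 to 6 of them were under the lower quartile in CAF, 6 to 7 in CSC, 2 to 3 in TEC and 3 to 6 in COF. Of the 16 genes, 1 was higher and 2 were lower in CAF than in COF.

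**Figure D2:**
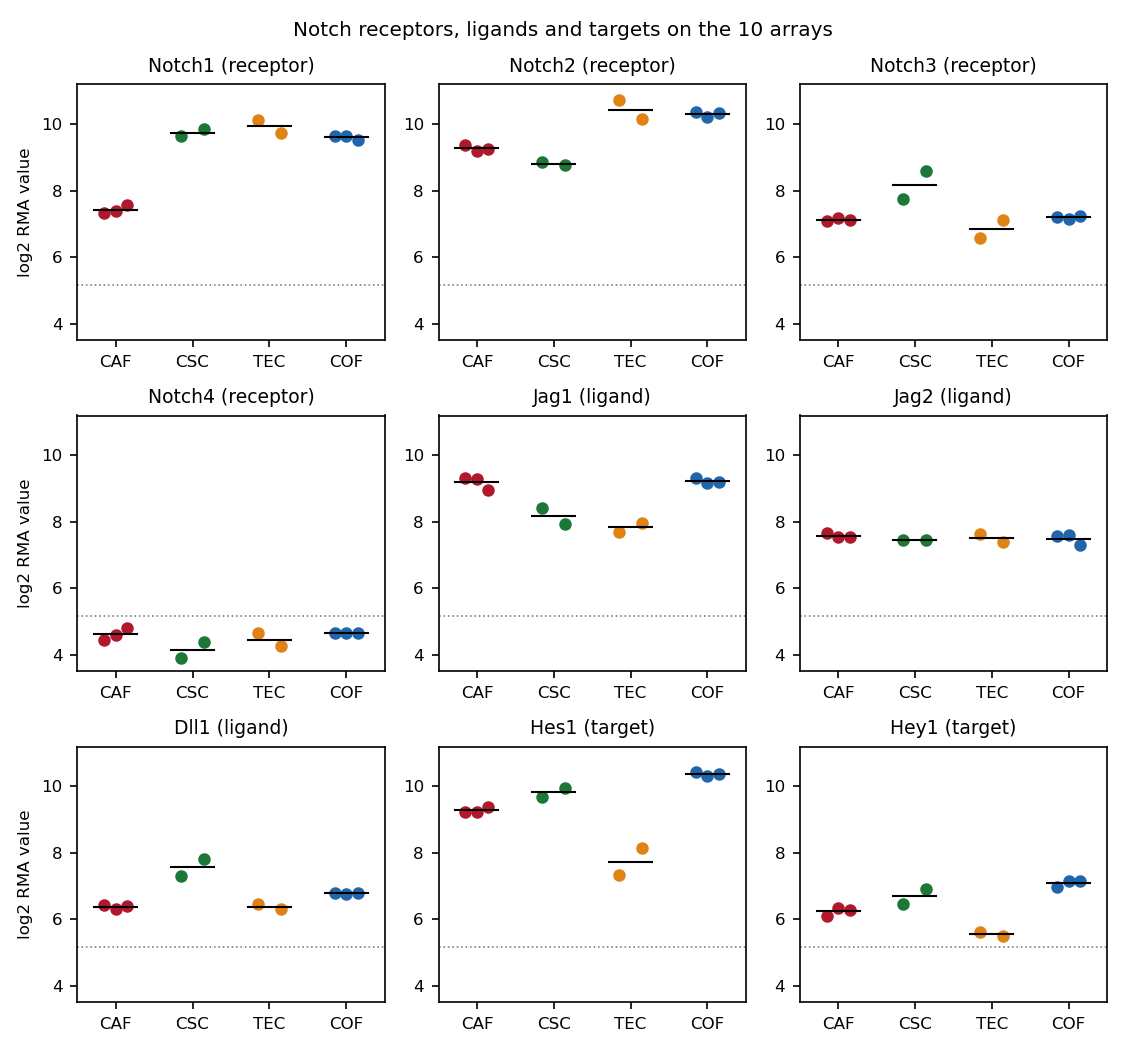
Log2 value of each Notch gene (1 panel a gene) on every array, grouped as CAF, CSC, TEC and COF. Points are arrays, black bars are group means and the dotted line is the mean lower quartile of the arrays. Notch1 stands apart in CAF at 7.35 to 7.58, Dll1 and Notch3 are highest in CSC, and Hes1 and Hey1 are lowest in TEC and highest in COF.

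Among the ligands, Jag1 set the fibroblasts apart from the other tumour populations and Dll1 set CSC apart from the rest. Jag1, a Jagged ligand that presents to Notch receptors on adjacent cells, had log2 values of 9.32, 9.28 and 8.96 in CAF, 8.40 and 7.93 in CSC, 7.70 and 7.98 in TEC, and 9.33, 9.17 and 9.21 in COF. All 6 fibroblast arrays lay above the 4 others, and CAF and COF overlapped. CAF exceeded CSC 2.03-fold (1.02 ± 0.17, adjusted p = 0.000572) and TEC 2.55-fold (1.35 ± 0.17, adjusted p = 0.000107). The difference from COF was -1.07 ± 0.17 in CSC and -1.40 ± 0.17 in TEC. The difference between CAF and COF was -0.046 (95% interval -0.39 to 0.29). That between CSC and TEC was 0.33 ± 0.18 (adjusted p = 0.178), or 0.56 without CSC replicate 2, which left 1 CSC array. The second Jag1 probe set gave 1.36 for CAF against CSC and 1.48 for CAF against TEC, both passing.

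Dll1, a Delta-like ligand, had log2 values of 6.43, 6.31 and 6.39 in CAF, 7.31 and 7.81 in CSC, 6.46 and 6.30 in TEC, and 6.80, 6.76 and 6.78 in COF. Both CSC arrays were above all others and the 3 COF arrays stood between them and the overlapping CAF and TEC arrays. CSC exceeded TEC 2.27-fold (1.18 ± 0.15, adjusted p = 0.000278), and CAF was below CSC at -1.18 ± 0.14 (adjusted p = 7.76e-05). CSC also exceeded COF by 0.78 ± 0.14 (adjusted p = 0.000894). The decrease in CAF against COF was small, at -0.40 ± 0.13 (adjusted p = 0.0350). It no longer passed when any single array of the 6 fibroblast arrays was left out (adjusted p = 0.0654 to 0.116). CAF and TEC differed by -0.0018 (95% interval -0.32 to 0.32).

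Jag2, the second Jagged ligand, had values of 7.53 to 7.67 in CAF, 7.46 and 7.44 in CSC, 7.64 and 7.39 in TEC and 7.31 to 7.60 in COF with the probe set used. These values nearly coincided, and none of the 6 comparisons between populations passed (adjusted p = 0.369 to 0.898). The other Jag2 probe set had log2 values of 5.74, 5.59 and 5.63 in CAF, 7.24 and 6.74 in CSC, 6.85 and 6.86 in TEC, and 5.30, 5.48 and 5.37 in COF. There the CSC and TEC arrays lay above every fibroblast array, and CAF was below CSC at -1.34 ± 0.14 (adjusted p = 3.53e-05) and below TEC at -1.20 ± 0.14 (adjusted p = 7.1e-05). The probe sets of Jag2 thus disagree, and which of them follows the transcript was not tested.

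**Figure D3:**
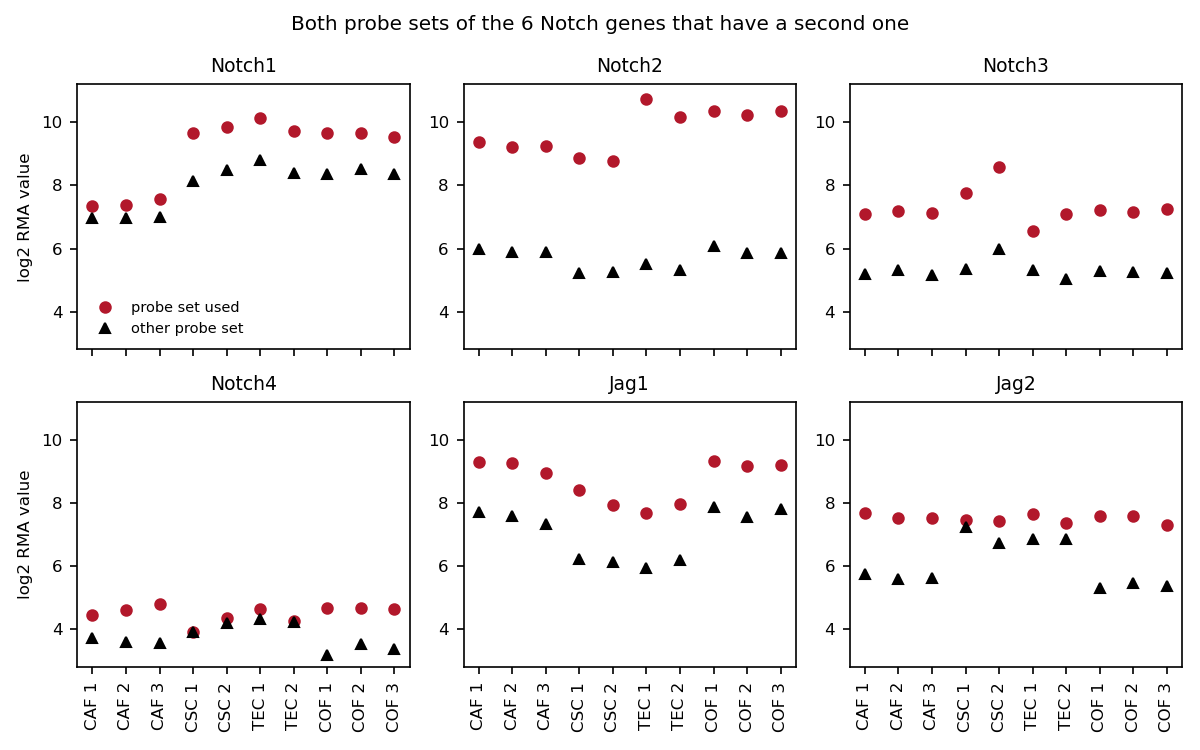
Log2 values of both probe sets of the 6 Notch genes that have a second one, on the 10 arrays in the order CAF, CSC, TEC, COF. Red circles are the probe set used and black triangles the other. The probe sets move together for Notch1 and Jag1, whereas for Jag2 only the other one is higher in CSC and TEC (6.74 to 7.24) than in the fibroblasts.

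The targets Hes1 and Hey1 had the same order of group means, from COF through CSC and CAF to TEC. Hes1, a repressor of the basic helix-loop-helix family, had log2 values of 9.24, 9.24 and 9.37 in CAF, 9.69 and 9.96 in CSC, 7.34 and 8.13 in TEC, and 10.44, 10.32 and 10.36 in COF. No 2 populations overlapped. Hes1 was 2.13-fold lower in CAF than in COF (-1.09 ± 0.18, adjusted p = 0.00163) and 4.25-fold higher in CSC than in TEC (2.09 ± 0.22, adjusted p = 8.16e-05). CAF exceeded TEC by 1.54 ± 0.20 (adjusted p = 0.000132). CAF was below CSC at -0.55 ± 0.20 (adjusted p = 0.0355). This step did not pass without any single CAF array (adjusted p = 0.0541 to 0.0839) or without COF replicate 3 (adjusted p = 0.0525). Without CSC replicate 2, which left 1 CSC array, the difference was -0.41.

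Hey1, a related repressor known from vessel and heart development, had log2 values of 6.10, 6.35 and 6.28 in CAF, 6.47 and 6.92 in CSC, 5.61 and 5.49 in TEC, and 6.96, 7.15 and 7.15 in COF. Here too no populations overlapped, though CSC replicate 2 came close to COF replicate 1. Hey1 was 1.80-fold lower in CAF than in COF (-0.84 ± 0.13, adjusted p = 0.00121) and 2.21-fold higher in CSC than in TEC (1.14 ± 0.16, adjusted p = 0.000389). CAF exceeded TEC by 0.69 ± 0.14 (adjusted p = 0.00231). CAF was below CSC at -0.45 ± 0.14 (adjusted p = 0.0208), which did not pass without CAF replicate 1 (-0.38, adjusted p = 0.0701). Without CSC replicate 2, which left 1 CSC array, the difference was -0.23.

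In CAF against COF, which asks how tumour fibroblasts differ from those of the healthy gland, 5 of the 9 genes were lower, 0 were higher and 4 did not pass, by limma with Benjamini-Hochberg adjustment. Over all genes 16.7% were lower, 18.1% higher and 34.8% called in either direction. At an unadjusted p under 0.05, also 0 of the 9 genes were higher. The median difference of the 9 genes was -0.40, beside 0.018 over all genes. Because the genes were chosen with earlier results of these data known, count and median are a description and not a test. The 5 lower genes were Notch1, Notch2, Dll1, Hes1 and Hey1. Notch2 was lower only with the probe set used, as the other one gave -0.019 (limma adjusted p = 0.918). Dll1 no longer passed when any single fibroblast array was left out. Cell type markers were compared between CAF and COF as well, and their part in these decreases was not tested. Of 12 leukocyte genes 9 were higher in CAF and 3 did not pass, and the log2 of their summed linear values ran between 10.47 and 11.66 in CAF, against 9.21 to 9.73 in COF. Of 17 pan-epithelial genes 9 were higher and 1 lower, with summed levels between 10.96 and 11.47 in CAF, against 10.18 to 10.85 in COF. Of the 15 pan-fibroblast genes 0 passed in limma, and 0 had an unadjusted p under 0.05.

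In CSC against TEC, which compares 2 populations of the same kind of tumour, 4 of the 9 genes were higher, 1 was lower and 4 did not pass. Over all genes 26.6% were higher, 20.1% lower and 46.7% called. Notch3, Dll1, Hes1 and Hey1 were higher in CSC and Notch2 was lower. The median difference was 0.33, beside 2.4e-07 over all genes. Count and median are again a description, because the genes were chosen with earlier results of these data known. All 12 leukocyte genes were lower in CSC, with summed levels of 13.84 and 14.41 in CSC and 16.18 and 16.55 in TEC, 16 of 17 pan-epithelial genes were higher, and 8 of 15 pan-fibroblast genes were lower. Without TEC replicate 2, the array with more fibroblast transcript, 1 TEC array was left, so only differences are given. They were 2.48 for Hes1, 1.61 for Notch3, 1.10 for Dll1, 1.09 for Hey1 and -1.91 for Notch2. The p-values of the main fit share 1 estimate of the spread over all 4 groups. In a limma fit on the CSC and TEC arrays alone, the adjusted p was higher. It was 0.0171 for Notch2, 0.0176 for Hes1, 0.0255 for Hey1, 0.0285 for Dll1 and 0.0592 for Notch3, which did not pass. Levels per epithelial cell and the makeup of the sorted cells cannot be told apart here.

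The study also asked how fibroblasts and CSC may interact. RNA levels of sorted populations do not show contact between cells, so the comparisons below do not test that. Of the 9 genes, 8 were called in CAF against CSC, 3 higher and 5 lower, where 66.5% of all genes were called, 33.4% higher and 33.1% lower. In CAF against TEC 5 were called, 3 higher and 2 lower, where 67.5% of all genes were called, 38.6% higher and 28.9% lower. Against COF, 7 of the 9 genes were called in CSC, 2 higher and 5 lower, where 69.5% of all genes were called, 33.7% higher and 35.8% lower. In TEC against COF 4 were called, all lower, where 68.2% of all genes were called, 29.8% higher and 38.5% lower. With a background this high, none of these 4 counts is read as a result about the Notch genes. The comparisons with CAF share the CAF arrays and those with COF share the COF arrays. Notch1 was lower in CAF than in both CSC and TEC, and Jag1 was higher in CAF than in both. With the probe sets used, Hes1, Hey1 and Notch2 differed from CSC in one direction and from TEC in the other. Their steps against CSC did not pass when CAF replicate 1 was left out. The other Notch2 probe set was higher in CAF than in both CSC and TEC.

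**Figure D4:**
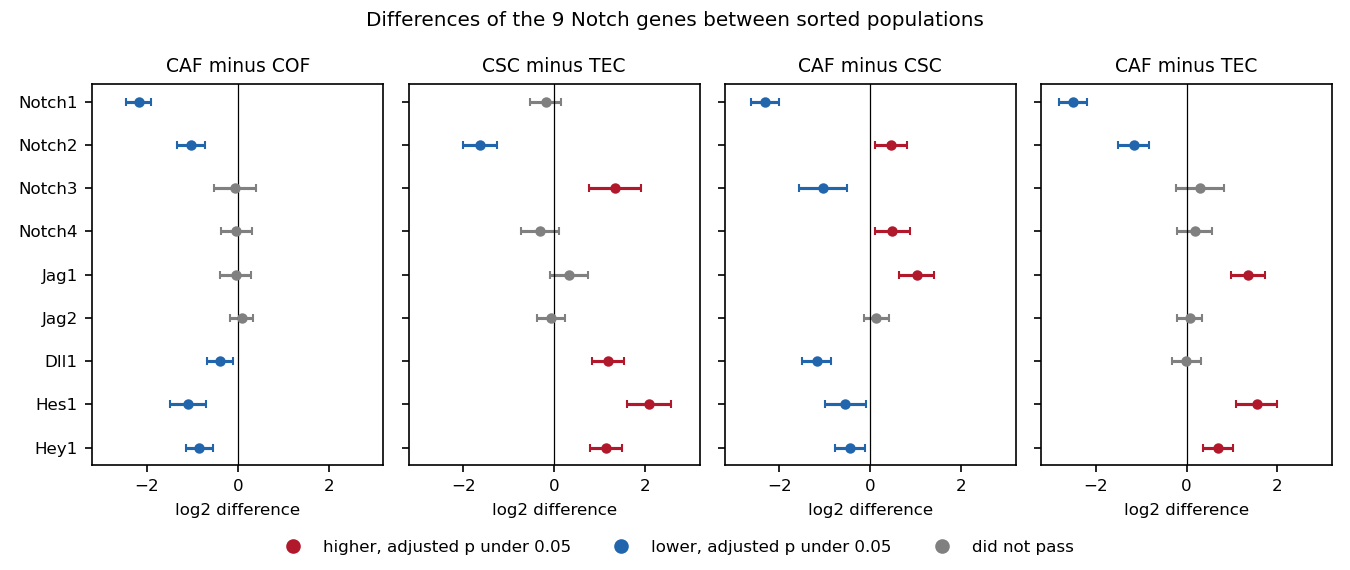
Log2 difference of each Notch gene (rows) in 4 comparisons (panels), with 95% confidence intervals as bars. Red points are higher and blue points lower in the first-named population at an adjusted p under 0.05, and grey points did not pass. Notch1 is at or below -2.18 wherever CAF is compared, and Hes1 is at 2.09 in CSC minus TEC.

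The rest of the pathway was described through 81 further genes in 8 lists by role, of which 71 were measured. In CAF against COF 8 of them were higher, 16 lower and 47 did not pass, with a median difference of -0.073. Over all genes 18.1% were higher, 16.7% lower and 34.8% called in either direction, with a median of 0.018. The share of the pathway genes called was thus close to that of all genes. Counts by list, here and in the other comparisons below, describe the named genes and are not read as results about the pathway. In the nuclear complex that carries the receptor's signal to DNA, 4 of 7 genes were lower and 3 did not pass. Rbpj, which encodes the DNA-binding partner, had log2 values of 8.52, 8.41 and 8.56 in CAF and 9.71, 9.09 and 9.47 in COF (-0.93 ± 0.19, adjusted p = 0.00478). The coactivator gene Maml1 (-0.66 ± 0.13) and the acetyltransferase gene Kat2b (-0.65 ± 0.12) were lower as well (adjusted p of at most 0.00376). Among corepressors 4 of 12 were lower and 8 did not pass, with the Groucho family genes Tle4 (-1.88 ± 0.15), Tle1 (-1.24 ± 0.084) and Tle3 (-0.73 ± 0.097) in front. Tle4 stood at 6.76, 6.91 and 7.08 in CAF and 8.99, 8.52 and 8.88 in COF.

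Genes for the cleavage, glycosylation, ubiquitination and trafficking of receptors and ligands included both higher and lower ones in CAF. Of 7 genes for receptor cleavage 3 were higher and 4 did not pass. Adam10, the protease of the first cut, had 10.77, 10.83 and 10.61 in CAF and 9.50, 9.54 and 9.45 in COF (1.24 ± 0.083, adjusted p = 2.38e-05). The gamma-secretase subunit genes Psen2 (0.43 ± 0.12) and Psenen (0.39 ± 0.084) were also higher. Of 5 genes that glycosylate the receptor 2 were higher and 3 did not pass. The higher ones were Poglut1 (0.92 ± 0.10), which adds O-glucose, and Pofut1 (0.28 ± 0.096, adjusted p = 0.0489), which adds O-fucose. Of 11 genes for ubiquitination and trafficking 5 were lower and 6 did not pass. They included Mib1 (-0.59 ± 0.086), the ubiquitin ligase that lets ligands be pulled into the sending cell, and Fbxw7 (-0.69 ± 0.090), which marks the intracellular receptor for decay. Among 6 other ligands the matrix protein gene Ccn3, a non-canonical ligand, was higher, at 12.77, 12.70 and 12.49 in CAF and 9.46, 9.34 and 9.37 in COF (3.27 ± 0.62, adjusted p = 0.00344). The name of its probe set ends in _x_at, a kind open to cross-hybridisation.

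Of the 9 other Hes and Hey genes measured, 0 passed in CAF against COF in limma, and 1, lower in CAF, had an unadjusted p under 0.05. Heyl was at 6.76, 6.87 and 6.73 in CAF and 6.75, 6.84 and 6.65 in COF, and Hes5 at 6.81, 6.80 and 6.81 in CAF and 6.87, 6.82 and 6.74 in COF. Of 14 other known targets 2 were higher and 3 lower in CAF. The cell cycle gene Ccnd1 was higher (1.93 ± 0.19) and the dominant-negative helix-loop-helix genes Id1 (-1.22 ± 0.19) and Id2 (-1.15 ± 0.18) were lower. These targets also answer to other pathways.

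**Figure D5:**
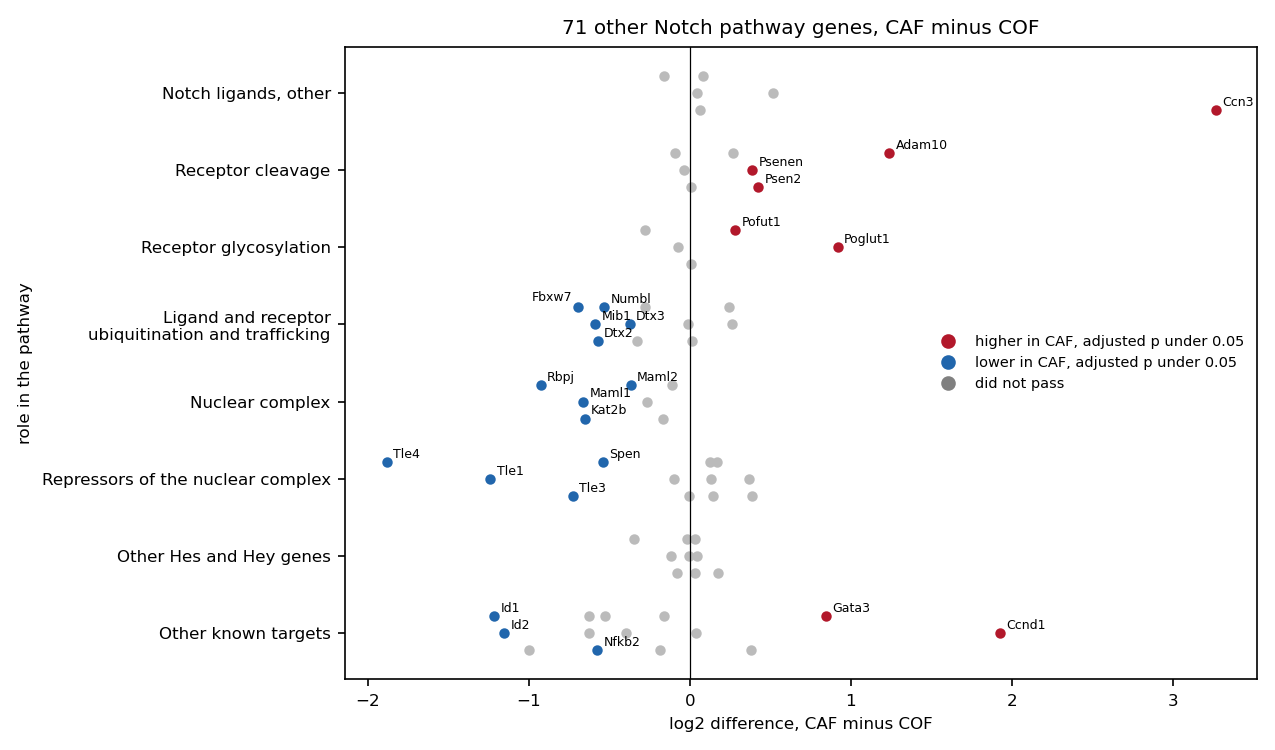
Log2 difference between CAF and COF of 71 other Notch pathway genes (points), in rows by role. Red points are higher and blue points lower in CAF at an adjusted p under 0.05, with their names, and grey points did not pass. The called genes of the nuclear complex and of its repressors all lie below 0, and those of receptor cleavage and glycosylation above it.

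In CSC against TEC 18 of the 71 pathway genes were higher, 18 lower and 35 did not pass, with a median of -0.12, beside 26.6% higher and 20.1% lower over all genes. The Fringe genes, which add sugars that alter which ligand a receptor answers to, split. Lfng had log2 values of 6.82 and 6.87 in CSC and 8.45 and 8.06 in TEC (-1.41 ± 0.19, adjusted p = 0.000336), and Mfng was lower at -1.10 ± 0.16, whereas Rfng was higher by 0.58 ± 0.13 (adjusted p = 0.00505). Lfng was near 5 in the fibroblasts, with a mean of 5.38 in CAF and 5.46 in COF. Both means lay close to the lower quartile of the fibroblast arrays, at 5.21 to 5.26. Leukocyte medians of every population are given above. A link of Lfng to leukocyte transcript was not tested. Of the 14 other targets 6 were higher in CSC, 4 lower and 4 did not pass, and those with the smallest adjusted p, Sox9 (2.74 ± 0.28), Ccnd1 (2.22 ± 0.23) and Ephb4 (1.03 ± 0.11), were higher. Of the 9 other Hes and Hey genes 1 was higher, 3 were lower and 5 did not pass. Hes6 (0.72 ± 0.11) was higher, and Bhlhe40 (-1.04 ± 0.24) and Hes7 (-0.64 ± 0.15) were lower. Of the 12 corepressors 4 were higher and 1 lower, and Tle2 (1.83 ± 0.21), Ctbp2 (1.30 ± 0.12) and Tle1 (0.92 ± 0.10) were among the higher ones. Of 7 cleavage genes 1 was higher and 3 were lower, and of 7 genes of the nuclear complex 2 were higher, Kat2a (1.01 ± 0.16) and Snw1 (0.68 ± 0.12), and 2 lower. The proteases Adam17 (-0.98 ± 0.18) and Furin (-0.75 ± 0.14) and the coactivator gene Maml1 (-1.09 ± 0.16) were lower (adjusted p of at most 0.00183).

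In CAF against CSC 21 of the 71 pathway genes were higher, 27 lower and 23 did not pass, and in CAF against TEC 23 were higher, 25 lower and 23 did not pass. Over all genes 66.5% were called against CSC and 67.5% against TEC. Against CSC, the fibroblasts of the tumour had more Heyl (1.44 ± 0.096), a target known from vascular mural cells, and more Hes5 (0.75 ± 0.10), and less Hes6 (-0.80 ± 0.097), all with an adjusted p of at most 0.000198. Numbl, a relative of the Notch inhibitor Numb, was higher in CAF by 2.33 ± 0.15 against CSC and by 2.01 ± 0.15 against TEC. Of the 6 other ligands 2 were higher and 2 lower in CAF, both against CSC and against TEC. Ccn3 was higher, at 5.19 ± 0.69 against CSC and 3.29 ± 0.69 against TEC, as was Dner, at 1.85 ± 0.25 and 1.40 ± 0.25. The Delta-like relative Dlk1 was lower in CAF, at -0.84 ± 0.11 against CSC and -0.98 ± 0.11 against TEC.

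For each of the 9 genes, the genes with the most similar values over the 10 arrays were sought by Pearson's r, as a description of arrays that fall into 4 groups. Notch1 was most like Cox7c (r = 0.995), Larp1b and Dek, and Notch2 most like Pgm2 (r = 0.993), Ptpn12 and Ccdc71l. Notch3 was most like Akap17b (r = 0.979), Myzap and Fars2, and Notch4 most like Dnajc4 (r = 0.938), Tubgcp4 and Resp18. Jag1 was closest to Sgk1 (r = 0.989), Steap3 and Map4k5, Dll1 to Ctr9 (r = 0.982), Slc5a6 and Spryd4, and Jag2 to Sct (r = 0.806), Ndp and Fv1. Hes1 was closest to Eif3f (r = 0.996), Naca and Ran, and Hey1 to Nfyc (r = 0.981), Snhg1 and Rere. None of the 9 genes was among the 3 genes most like another of them.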

How the data were processed

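RNA of sorted mouse mammary cells, 100 ng an array per the labels, was hybridised to 10 Affymetrix arrays with 1 colour. The authors deposited log2 values for 22690 probe sets, and the submitters' processing notes name RMA. RMA corrects background, equalises the arrays' distributions and summarises probes, so shifts of all genes at once are removed. Its version and whether all arrays were normalized together are not given in the sources used here.

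Sample titles gave groups and replicate numbers. In the annotation of the array, 20393 probe sets carry 1 gene symbol, 691 carry several and 1606 none. Only those with 1 symbol were kept, with symbols updated through RefSeq for 20364 of them. The probe set with the highest mean stood for its gene, which left 12394 genes. Every gene was fitted over the 10 arrays in limma 3.58.1 (lmFit, eBayes, R 4.3.3), with 4 groups and no covariate. Two-sided p-values were Benjamini-Hochberg adjusted across genes for each contrast, with 0.05 as the threshold. The script was tested on simulated data. The number of arrays limits the precision, and no detection calls were used.

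The named genes are the 9 Notch genes, up to 3 genes with the smallest adjusted p of each pathway list in each of 4 contrasts, the 3 genes most like each Notch gene, and markers where a result turns on them. Members and lists were chosen with earlier results of these data known. Alternatives were a fit on 2 groups, a replicate block, a trended robust prior, no dim genes, other probe set choices, other normalizations, averaged closest arrays and each array left out in turn.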

Additional observations from a re-analysis of the deposited data

How the results depend on the processing

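Over the 4 comparisons, 645 of 704 recomputed differences of single Notch genes kept their direction and their side of the threshold. Calls of Notch1, Hes1 and Hey1 in CAF against COF, and of Dll1, Hes1 and Hey1 in CSC against TEC, held in every alternative run for them. The number of genes called in CAF against COF was 1805 with the closest arrays averaged, against 4309, and in CSC against TEC 3013 in a fit on those 4 arrays alone, against 5786. With the closest arrays averaged, 4 of the 9 Notch genes were called in CAF against CSC, against 8, and 7 of 27 neighbours in the order of levels differed, against 13. Without CAF replicate 1, 5 Notch genes were called in CAF against CSC. With the other probe set, chosen after seeing the data, 3 were called in CSC against TEC, against 5.

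The sign turned in the following cases. With the other probe set Notch4 became 0.27 in CAF against COF, -0.43 against CSC and -0.66 against TEC, Jag2 became 0.14 in CSC against TEC, -1.34 in CAF against CSC and -1.20 against TEC, and Notch2 became 0.50 in CAF against TEC. With the mean of all probe sets Notch4 became 0.12 in CAF against COF and -0.24 in CAF against TEC, and Jag2 0.037 in CSC against TEC, -0.60 in CAF against CSC and -0.57 in CAF against TEC. With the closest arrays averaged Notch4 became 0.012 in CAF against COF and Dll1 0.0016 in CAF against TEC. Leaving out 1 array at a time turned the sign of differences that did not pass, with ranges of -0.13 to 0.050 for Notch4, -0.11 to 0.066 for Jag1 and -0.0082 to 0.14 for Jag2 in CAF against COF, -0.38 to 0.017 for Notch1 and -0.19 to 0.064 for Jag2 in CSC against TEC, and -0.019 to 0.37 for Notch4, -0.062 to 0.19 for Jag2 and -0.082 to 0.078 for Dll1 in CAF against TEC. The cause was not tested. Whether replicate numbers pair the arrays is not known from the sample titles. The deviations of same-numbered arrays from their group means correlated at 0.127, 0.0063 and -0.082 in CAF with COF and at -0.057 in CSC with TEC. So few arrays cannot decide it. With the replicate number as a block 4 Notch genes were called in CAF against COF, without Dll1 (adjusted p = 0.0717), 5 in CSC against TEC, 7 in CAF against CSC, without Notch4 (adjusted p = 0.0843), and 5 in CAF against TEC.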
